A study of Homo sapiens with 12 samples.

Results

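PPARA and 6 genes of fatty acid oxidation and lipid storage that it is known to regulate were examined in HepG2 cells over a course of insulin stimulation. The genes were chosen by name in the deposited count table and are PPARA, CPT1A, CPT2, ACADM, ACADVL, HADHA and PLIN2, which are 7 of the 26364 named genes counted. All 7 were among the 13852 genes that passed the filter on low counts. HepG2 is an established line from a human liver cancer, and no genetic change is named for the cells used here. RNA was sequenced at 5 times of insulin (0, 5, 10, 30 and 240 min) in 2 replicates each, 10 libraries in all. All libraries share the cell line and the culture in the deposited text. That was growth in EMEM with 10% FBS followed by 16 hours in EMEM and then EMEM with BSA and insulin. For HepG2 insulin experiments the paper's methods instead give days in EMEM, days in insulin with BSA, and a washout before acute insulin. Whether the RNA libraries had such earlier insulin is not said. The treatment text deposited with each RNA library names 3 nM insulin and 5 min, those at 0 min included, while the groups used here follow the times in the titles. Chromatin immunoprecipitation of the insulin receptor (IR) from HepG2 cells stimulated with 3 nM insulin gave 1 table of peaks, without a replicate.

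PPARA is a nuclear receptor that binds fatty acids and, as a heterodimer with a retinoid X receptor, turns on genes of fatty acid uptake, oxidation and ketone body synthesis in the liver during fasting. Fatty acids activated to acyl-CoA enter mitochondria through the carnitine shuttle and are shortened there by beta-oxidation, and in the fasted liver the acetyl-CoA that results is turned into ketone bodies. Insulin, the hormone of the fed state, is known to restrain this program and to favor fat storage.

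Reads on genes numbered 18347109 to 45005769 in a library, the deepest being 0 min replicate 2. ERCC spike-in RNA took 1.59% to 2.36% of the counts and was left out. All 8 hepatocyte markers (ALB, AFP, APOA1, APOB, TTR, FGB, SERPINA1 and HNF4A) were counted, with a summed level of 63640 to 79050 CPM (library-size-scaled counts with TMM factors). The 4 blood cell markers summed to 36.95 to 46.07 CPM, nearly all of it CD68, and PTPRC was at 0 in each library. The endothelial markers summed to 2.43 to 4.21 CPM and those of fibroblasts and stellate cells to 1.005 to 2.23 CPM. Replicates were farther apart than sampling noise alone (chi-square per degree of freedom 2.86 to 6.46) and were kept as separate samples. The paper describes the RNA-seq as a single experiment on biologically independent samples, and no label says whether replicates came from separate cultures. The p-values measure the spread between these libraries, not that between repeats of the experiment. As in any bulk sample, fewer cells that express a gene and less RNA per cell cannot be told apart.

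Of the 7 genes, PLIN2 rose by 24.9% and ACADVL fell by 13.2% at 240 min of insulin, and neither they nor the other 5 genes passed the test at 5, 10 or 30 min. No library was kept for 240 min without insulin, so insulin, the change of medium and time in culture cannot be told apart. PPARA, CPT1A, CPT2, ACADM and HADHA did not pass at any time. At 240 min the background was high, since 41.0% of the 13852 genes tested differed from 0 min, 20.6% being higher and 20.4% lower, which is a larger share than 2 of 7. The median log2 fold change at 240 min was -0.09 for the 7 genes and -0.003 for all genes tested. These comparisons used the quasi-likelihood test of edgeR, adjusted by Benjamini-Hochberg over all genes tested, with a threshold of 0.05, and the log2 fold changes they gave are called log2 changes below.

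Levels of different genes were compared as TPM, which is scaled for transcript length. At 0 min HADHA was highest with 306.8 and 316.8 TPM in the 2 replicates. ACADVL followed with 171.6 and 191.1 TPM, PLIN2 with 142.0 and 152.8, and ACADM with 96.98 and 102.2. PPARA (23.75 and 25.89 TPM), CPT2 (23.41 and 24.18) and CPT1A (17.20 and 24.60) formed a low group whose replicates overlapped, while no replicates overlapped between the genes above them. At 240 min PLIN2 stood at 190.9 and 191.1 TPM and ACADVL at 161.8 and 163.2, so that the order of these genes was exchanged, and HADHA was still highest with 300.8 and 302.5.

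**Figure D1:**
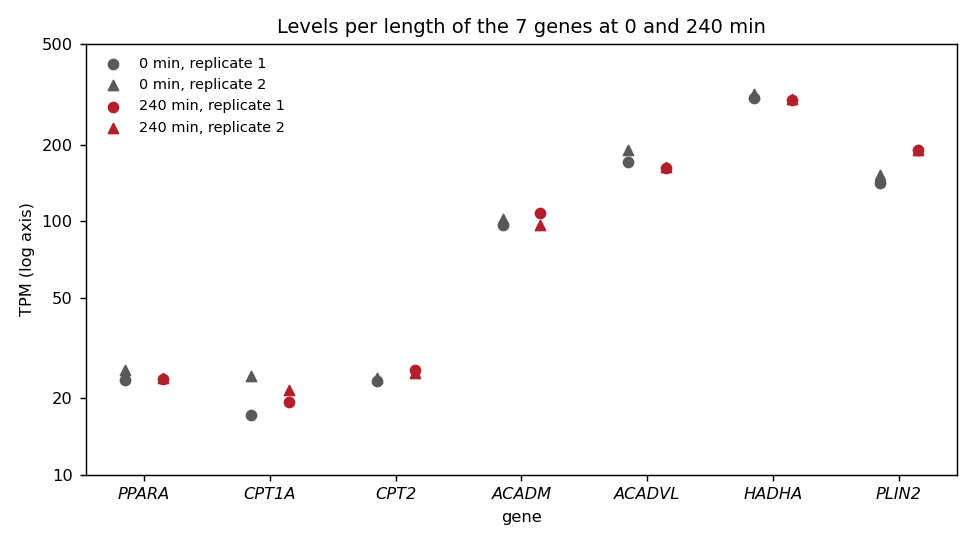
Levels of the 7 genes in TPM on a log axis, with a point for each replicate at 0 min (grey) and 240 min (red). HADHA is highest at both times (306.8 and 316.8 TPM at 0 min), PPARA, CPT1A and CPT2 lie near 20 TPM, and PLIN2 passes ACADVL at 240 min (190.9 and 191.1 against 161.8 and 163.2 TPM).

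PPARA, the receptor itself, lies on chromosome 22 (chr22:46546499-46639653, plus strand, in hg19 like all gene and peak positions here). Its level was 97.4 and 104.5 CPM in the replicates at 0 min, 101.9 and 110.4 after 5 min, 98.8 and 99.2 after 10 min, 101.6 and 99.1 after 30 min, and 95.4 and 94.0 after 240 min. Both libraries at 240 min were below each of the other 8, but by little, and the means spanned only 1.12-fold over the course. How many of all genes had both 240 min libraries lowest was not counted. From high to low the times ran 5, 0, 30, 10 and 240 min, and of the neighbors in this order only 10 and 240 min did not overlap. At 240 min the log2 change was -0.10 (SE 0.053, adjusted p = 0.157, edgeR), which did not pass, and against 30 min it was -0.08 (adjusted p = 0.231, edgeR). Leaving out single libraries moved the former between -0.14 and -0.04.

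CPT1A makes the outer membrane enzyme that joins long-chain fatty acids to carnitine, the step that malonyl-CoA inhibits, and lies on chromosome 11 (chr11:68522088-68609399, minus strand). Its levels were 36.8 and 51.7 CPM at 0 min, 51.2 and 54.8 after 5 min, 41.3 and 50.6 after 10 min, 46.7 and 57.5 after 30 min, and 40.3 and 44.4 after 240 min. Replicate 2 was above replicate 1 at 5 of 5 times, and neighbors in the order of times (5, 30, 10, 0 and 240 min) overlapped throughout. The same replicate was the higher of the pair at all 5 times in 8.37% of the genes tested. The log2 change was 0.23 at 5 min (SE 0.12, adjusted p = 0.389, edgeR), and at 30 min it was 0.20 (adjusted p = 0.7, edgeR). Both values moved with the 0 min libraries, to 0.03 and 0.001 without replicate 1 and to 0.53 and 0.49 without replicate 2, and none of these 4 values passed. Without 30 min replicate 2 the change at 30 min was 0.05, and without 30 min replicate 1 it was 0.35.

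At 240 min CPT1A differed from 0 min by -0.10 on the log2 scale (SE 0.12, adjusted p = 0.565, edgeR). This value rested on the 0 min libraries. Without 0 min replicate 1 it was -0.29 and passed (adjusted p = 0.0440, edgeR), and without 0 min replicate 2 it turned to 0.20 (adjusted p = 0.247, edgeR). Both libraries at 240 min were below both at 30 min, with a log2 change of -0.29 (SE 0.12, adjusted p = 0.0695, edgeR). That comparison lay near the threshold, and over the alternatives its adjusted p ran from 0.000165 (no filter on low counts) to 0.483 (ERCC scaling). Single libraries moved the value by much. Without 30 min replicate 1 the log2 change was -0.45 and passed (adjusted p = 0.0223, edgeR), and without 30 min replicate 2 it was -0.15 and did not (adjusted p = 0.466, edgeR). It also passed without 0 min replicate 1 or 2 (adjusted p = 0.0200 and 0.0202, edgeR).

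CPT2 makes the inner membrane partner that returns the acyl group to CoA inside the mitochondrion, and lies on chromosome 1 (chr1:53662101-53679869, plus strand). It was the flattest of the 7 genes, its time means spanning 1.049-fold. Its replicates stood at 29.2 and 30.0 CPM at 0 min, 30.5 and 29.3 after 5 min, 31.4 and 30.0 after 10 min, 30.3 and 29.6 after 30 min, and 31.7 and 30.4 after 240 min. The order of its times was 240, 10, 5, 30 and 0 min, and all neighbors overlapped. Both libraries at 240 min were above both at 0 min, yet the log2 change of 0.07 (SE 0.065, adjusted p = 0.425, edgeR) did not pass and turned to -0.05 with ERCC scaling.

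ACADM makes the medium-chain acyl-CoA dehydrogenase, an entry enzyme of mitochondrial beta-oxidation, and lies on chromosome 1 (chr1:76190032-76229363, plus strand). An IR peak of 399 bases covered the start of its gene body (chr1:76189937-76190335, score 104 in the peak table, rank 834 of 1971). A higher score is a stronger peak. In it lay 3 annotated transcript starts of ACADM, while the start used by RefSeq (chr1:76190394) lay past its end. The part of this peak before the start of the gene body, chr1:76189937-76190031 in GRCh37 (hg19) and plus strand, is shown as sequence under an IR peak, the capitals marking each CG.
ACADM upstream part of the peak: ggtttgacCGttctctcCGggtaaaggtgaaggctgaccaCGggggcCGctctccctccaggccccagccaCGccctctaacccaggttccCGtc
The stretch holds 6 CG in 95 bases and is 66.3% G and C. Neither AGGTCA nor its complement TGACCT, the half-site that PPARA and its partners are known to bind as a repeat, is in it.

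ACADM was read at 104.0 and 107.8 CPM at 0 min, 108.6 and 118.1 after 5 min, 107.7 and 104.5 after 10 min, 110.4 and 114.8 after 30 min, and 111.6 and 99.0 after 240 min. The libraries at 5 and 30 min lay above those at 0 min, and the 2 libraries at 240 min lay on either side of them. In the order 5, 30, 10, 0 and 240 min only 30 and 10 min did not overlap. None of these differences passed, with log2 changes of 0.09 after 5 min (adjusted p = 0.463, edgeR), 0.09 after 30 min (adjusted p = 0.736, edgeR) and -0.01 after 240 min (SE 0.058, adjusted p = 0.93, edgeR). The sign of the last value changed with the processing, and leaving out 240 min replicate 2 gave 0.07 and leaving out 0 min replicate 2 gave 0.02. Against 30 min the log2 change was -0.09 (adjusted p = 0.231, edgeR), and without 240 min replicate 1 it was -0.19 and passed (adjusted p = 0.0407, edgeR), whereas without 240 min replicate 2 it was -0.01 (adjusted p = 0.904, edgeR).

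ACADVL makes the very-long-chain acyl-CoA dehydrogenase of the inner membrane, which starts the oxidation of long acyl chains, and lies on chromosome 17 (chr17:7120444-7128586, plus strand). Its libraries held 163.5 and 178.5 CPM at 0 min, 164.3 and 162.1 after 5 min, 167.5 and 160.1 after 10 min, 174.1 and 170.1 after 30 min, and 150.0 and 147.4 after 240 min. The 240 min libraries were the lowest of the 10, below all others, whereas the earlier times, in the order 30, 0, 10 and 5 min, overlapped from neighbor to neighbor. ACADVL fell at 240 min by 13.2%, a log2 change of -0.20 (SE 0.050, adjusted p = 0.00313, edgeR), and it was also lower than at 30 min (-0.21, SE 0.051, adjusted p = 0.0027, edgeR). The background of the latter comparison was 38.2% of genes called. The fall from 0 min needed 0 min replicate 2, the deepest library, since when it was left out the log2 change was -0.14 and no longer passed (adjusted p = 0.0948, edgeR). With limma on log2(TPM + 1) it was -0.16 (adjusted p = 0.130), and with ERCC scaling -0.32 (adjusted p = 0.324, edgeR).

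HADHA makes the alpha subunit of the mitochondrial trifunctional protein, which carries out the later steps on long chains together with HADHB, and lies on chromosome 2 (chr2:26413504-26467594, minus strand). Its values were 360.5 and 367.2 CPM at 0 min, 359.5 and 361.9 after 5 min, 375.3 and 361.8 after 10 min, 361.3 and 367.5 after 30 min, and 343.1 and 339.5 after 240 min. As for PPARA and ACADVL, both libraries at 240 min were below the other 8, a trait whose share over all genes was not counted. Here too the means spanned little, 1.08-fold. In the order 10, 30, 0, 5 and 240 min only the last neighbors did not overlap. The log2 change of -0.09 (SE 0.046, adjusted p = 0.115, edgeR) did not pass, nor did that against 30 min (-0.09, adjusted p = 0.114, edgeR). HADHB, the beta subunit, had a log2 change of -0.06 at 240 min (adjusted p = 0.282, edgeR).

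PLIN2 makes perilipin 2, the main coat protein of lipid droplets in liver cells, and lies on chromosome 9 (chr9:19115759-19127604, minus strand). The 136 bases before its annotated starts, chr9:19127605-19127740 in GRCh37 read on the minus strand, are shown as the upstream sequence of the gene that rose, with each CG in capitals.
PLIN2 upstream: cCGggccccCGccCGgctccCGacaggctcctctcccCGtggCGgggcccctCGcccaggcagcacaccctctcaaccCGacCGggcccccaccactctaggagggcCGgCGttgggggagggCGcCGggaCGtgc
They hold 14 CG and are 79.4% G and C, and no AGGTCA or TGACCT.

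PLIN2 had 115.4 and 123.9 CPM at 0 min, 116.4 and 117.6 after 5 min, 114.2 and 116.7 after 10 min, 125.6 and 122.7 after 30 min, and 151.3 and 148.1 after 240 min. The 2 libraries at 240 min stood clear of the other 8, and the earlier times, in the order 30, 0, 5 and 10 min, overlapped from neighbor to neighbor. It rose at 240 min by 24.9%, a log2 change of 0.32 (SE 0.048, adjusted p = 2.74e-05, edgeR), and was 20.6% above 30 min (0.27, SE 0.049, adjusted p = 0.000194, edgeR). Leaving out single libraries gave 0.27 to 0.37 against 0 min, and none of these fits lost the call. With ERCC scaling the value was 0.21 (adjusted p = 0.560, edgeR), in a fit where the median of all genes was -0.119 (-0.003 with TMM) and 1059 genes were called in place of 5676. Among the 7 genes at 240 min against 0 min the log2 change of 0.32 was the largest in size, and it was opposite in sign to that of ACADVL.

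**Figure D2:**
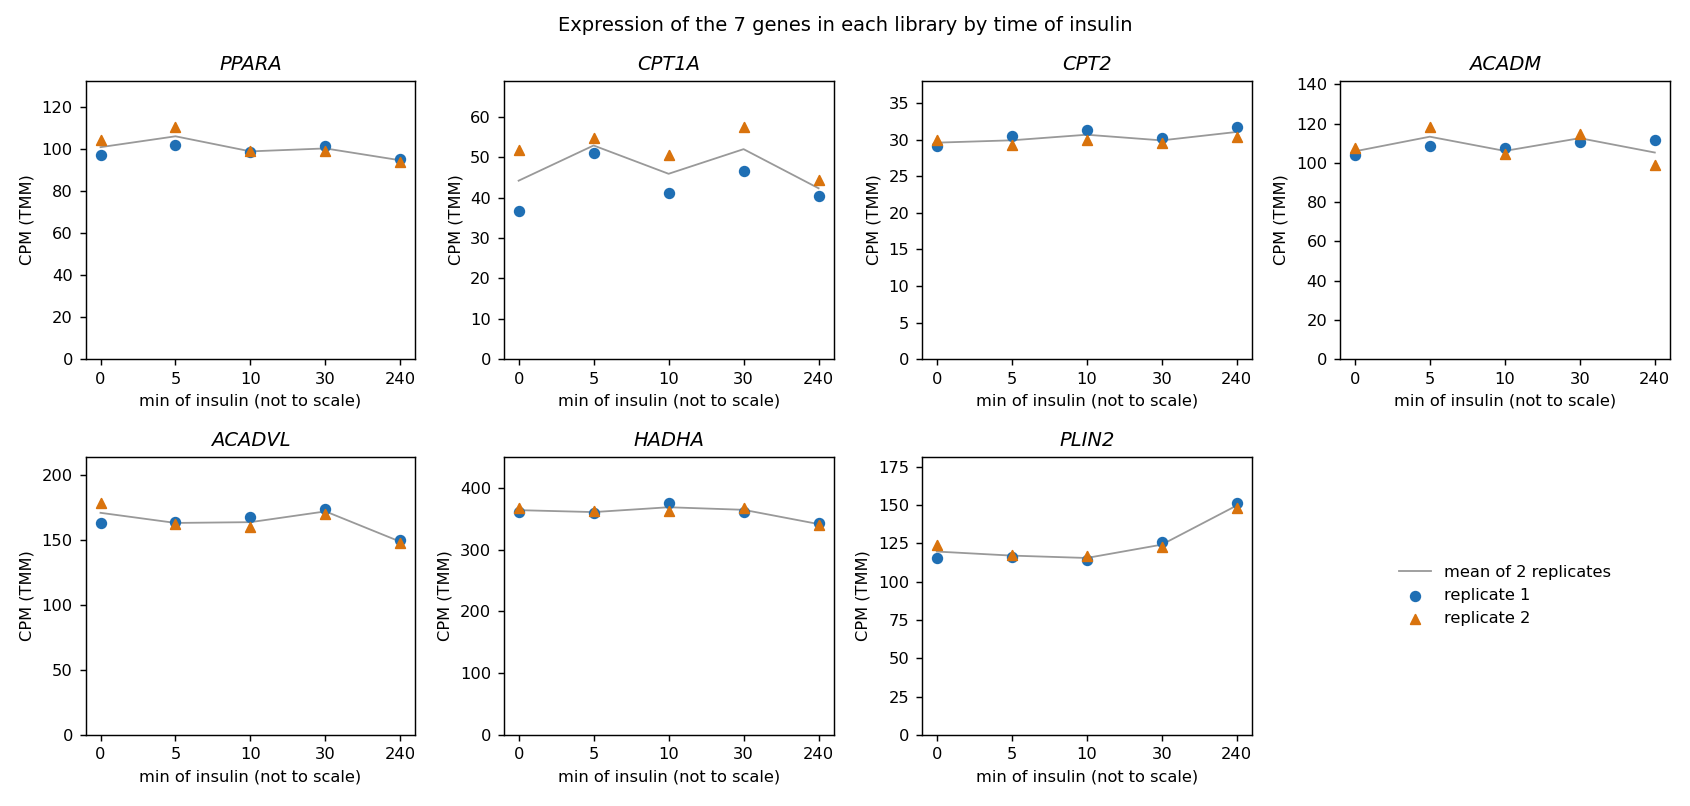
Level of each of the 7 genes in CPM after TMM scaling in the 10 libraries, by min of insulin at even spacing, with replicate 1 as circles, replicate 2 as triangles and the mean of both as a line. PLIN2 climbs to 151.3 and 148.1 CPM at 240 min, ACADVL drops to 150.0 and 147.4, and the replicates of CPT1A lie apart at 0 min (36.8 and 51.7).

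Before 240 min the largest log2 change among the 7 genes was 0.23 (CPT1A at 5 min), which did not pass and became 0.03 when replicate 1 at 0 min was left out and 0.53 when replicate 2 was. The genes called at 5, 10 and 30 min made up 0%, 0.137% and 0.332% of all genes tested, and of the 7 genes 0 were called at these times by edgeR and 0 by DESeq2, with 0 at an unadjusted p under 0.05. In edgeR's test 1976 of all genes had an unadjusted p under 0.05 after 5 min. The median log2 change of the 7 genes was 0.01 after 5 min, 0.0008 at 10 min and 0.01 after 30 min. At 240 min both replicates lay on the same side of both 0 min replicates for 5 of the 7 genes, PPARA, ACADVL and HADHA being lower and CPT2 and PLIN2 higher. This was so for 69.7% of all genes tested. The share of all genes whose 240 min libraries lay outside those of every earlier time was not counted.

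**Figure D3:**
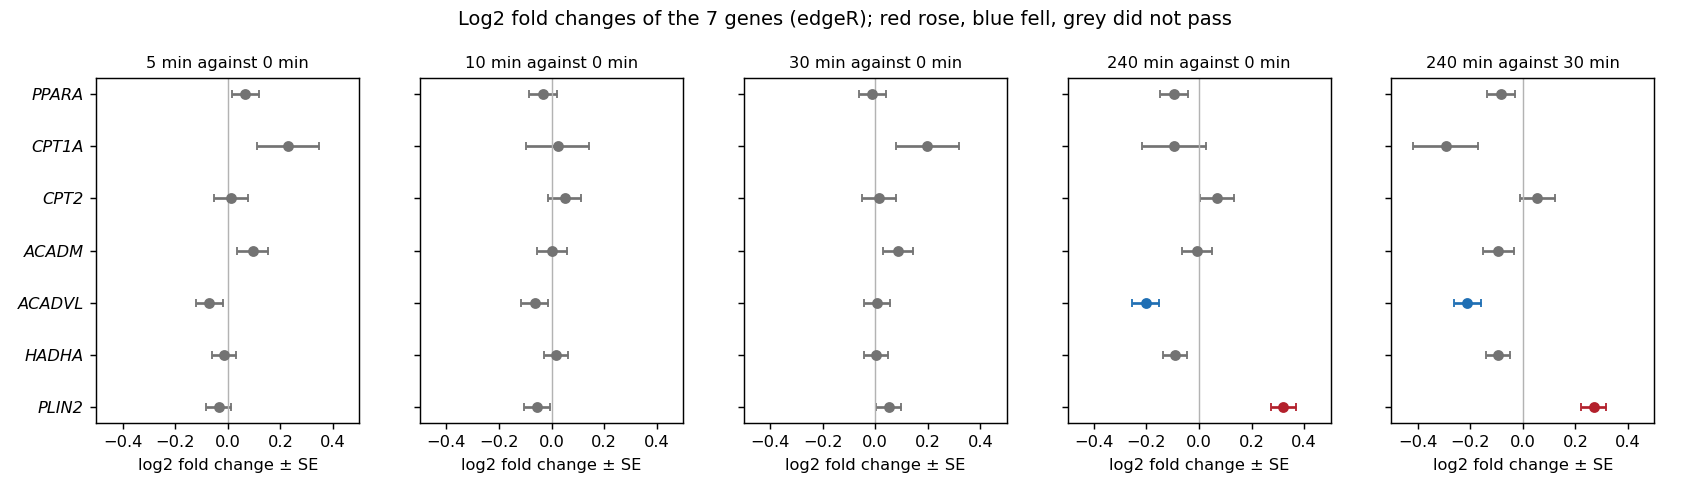
Log2 fold change of each of the 7 genes with its SE in the 5 comparisons, from edgeR, with genes that rose in red, genes that fell in blue and the others in grey. PLIN2 (0.32) and ACADVL (-0.20) pass at 240 min against 0 min and again against 30 min, and CPT1A has the widest bars.

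Across the 10 libraries the log2 levels of HADHA and ACADVL moved together (Pearson r = 0.839) and those of HADHA and PLIN2 in opposite ways (r = -0.863), as a description over libraries that share 5 times and differ in depth. PPARA went with ACADM (r = 0.65) and CPT1A (r = 0.614). Among the 10387 genes that averaged 5 CPM or more, the genes most like PPARA were NPAT (r = 0.969), C5 (0.958), ZNF546 (0.954), KAT6B (0.952) and ZNF426 (0.95). Those most like CPT1A were PROS1 (0.939), MYO6 (0.923), IQCH-AS1 (0.921), FAM173B (0.916) and NRP1 (0.913). Those most like PLIN2 were LCMT2 (0.982), TCF7 (0.976), C10orf2 (0.975), RBM45 (0.975) and MIS12 (0.972), whose log2 changes at 240 min ran from 0.27 (MIS12) to 0.78 (LCMT2). PLIN2 itself moved mainly at 240 min, so a rise then in genes picked for likeness to it was fixed by the choice. On log2(TPM + 1), 4 of the 5 genes most like PPARA were again among the 5, and 1 of 5 for CPT1A and for PLIN2.

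Some of the partners with which PPARA works passed the test at 240 min. Of 14 listed PPAR receptors and partners 13 were tested, and at 240 min 3 rose and 5 fell, with a median log2 change of -0.12. For this list and those below, the background at 240 min is 41.0% of all genes called, 20.6% higher and 20.4% lower. PPARGC1A, the coactivator PGC-1alpha that is induced in the fasted liver, fell from 36.0 and 36.8 CPM at 0 min to 18.7 and 16.6 at 240 min, a log2 change of -1.04 (SE 0.085, adjusted p = 2e-08, edgeR). Its relative PPARGC1B, coding for PGC-1beta, went the other way from a low level, from 2.55 and 1.82 CPM to 6.80 and 7.20 (log2 change 1.74, SE 0.18, adjusted p = 2.82e-07, edgeR). RXRB, a retinoid X receptor, fell from 42.2 and 42.6 CPM to 22.2 and 23.1 (log2 change -0.91, SE 0.064, adjusted p = 3.52e-09, edgeR). For these 3 genes both libraries at 240 min lay outside the range of the 8 earlier ones, a trait whose share over all genes was not counted. RXRA, the main retinoid X receptor of the liver, had a log2 change of -0.15 (adjusted p = 0.0966, edgeR), and RXRG had no count.

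The sister receptors PPARG and PPARD fell, by 0.38 (adjusted p = 0.000841, edgeR) and 0.37 (adjusted p = 0.000806, edgeR) on the log2 scale. With ERCC scaling PPARG and PPARD did not pass (adjusted p = 0.0989 and 0.0961, edgeR), nor did PPARD with limma on TPM. MED1, a Mediator subunit that binds nuclear receptors, also fell, with -0.13 (adjusted p = 0.0348, edgeR). MED1 did not pass without either 0 min replicate, either 10 min replicate or 240 min replicate 2 (adjusted p up to 0.212). LPIN1, whose product lipin 1 is a phosphatidate phosphatase and a coactivator of PPARA, had 68.3 and 59.8 CPM at 0 min, 52.7 and 55.2 at 30 min and 84.9 and 84.2 after 240 min. It rose by 0.41 from 0 min (SE 0.060, adjusted p = 2.13e-05, edgeR) and by 0.65 from 30 min (adjusted p = 1.33e-07, edgeR). The coactivator NCOA1 rose by 0.23 (adjusted p = 0.00322, edgeR) and lost the call without 240 min replicate 1 (0.17, adjusted p = 0.0793, edgeR).

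**Figure D4:**
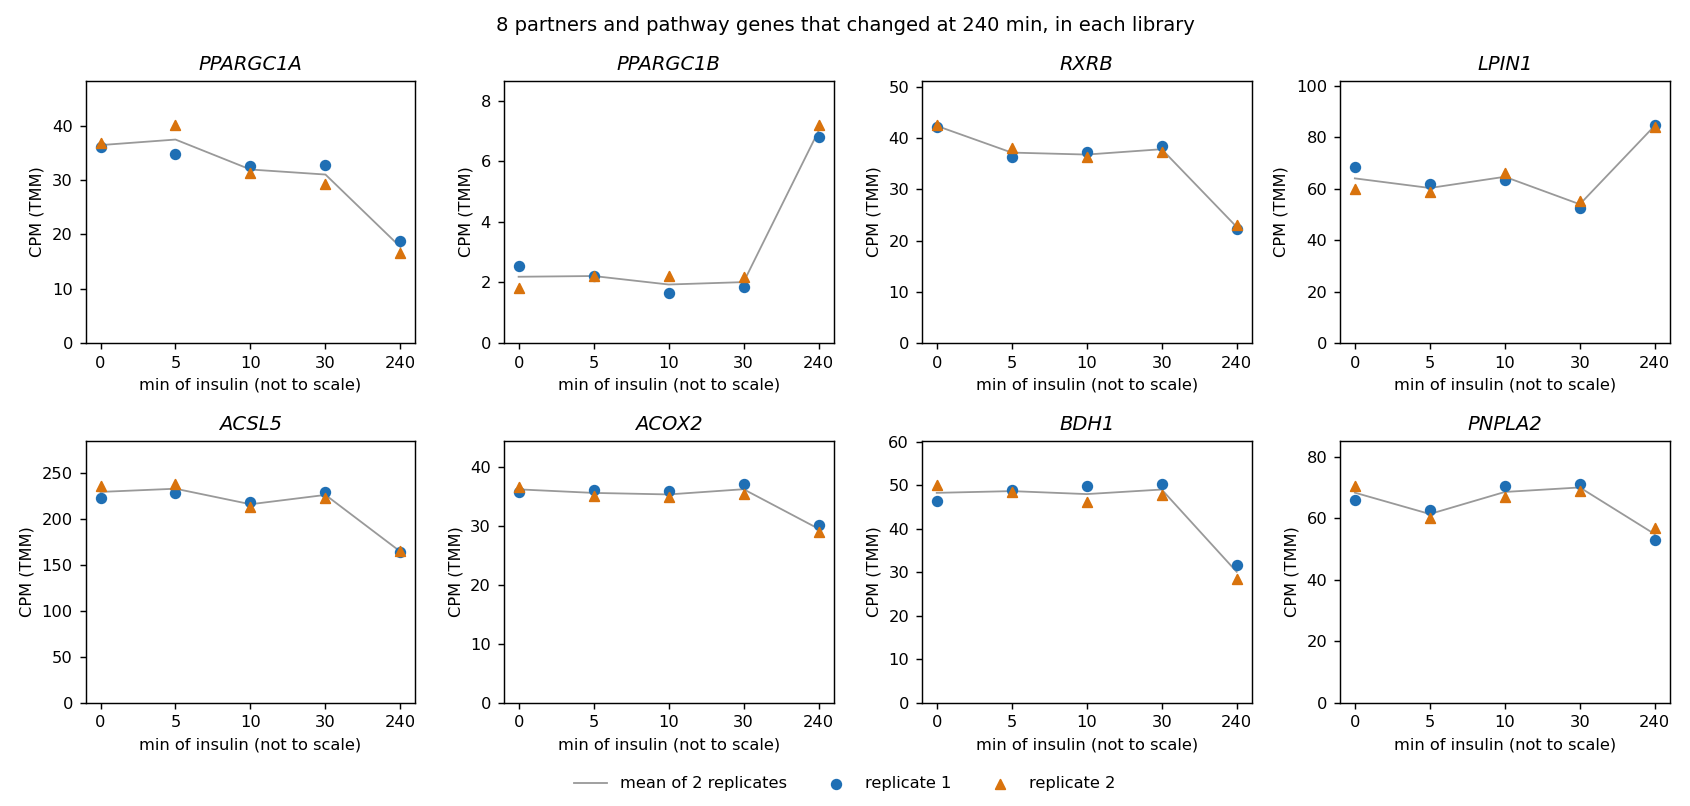
Levels in CPM after TMM scaling of 4 partners of PPARA (PPARGC1A, PPARGC1B, RXRB and LPIN1) and 4 genes of fatty acid metabolism (ACSL5, ACOX2, BDH1 and PNPLA2) in the 10 libraries, by min of insulin at even spacing, with circles and triangles for replicates 1 and 2 and a line for their mean. PPARGC1A ends at 18.7 and 16.6 CPM, PPARGC1B at 6.80 and 7.20, and in each panel both points at 240 min lie outside those at 30 min.

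Of 17 genes of fatty acid uptake, activation and the carnitine shuttle 15 were tested. Of these 2 rose, 3 fell and 10 did not pass (median -0.10, background 41.0% called). The 5 genes that passed were acyl-CoA synthetases, which activate fatty acids, and a transporter. In the shuttle itself, beside CPT1A and CPT2, SLC25A20, the acylcarnitine carrier, had -0.05 (adjusted p = 0.689, edgeR) and CRAT, carnitine acetyltransferase, 0.02 (adjusted p = 0.868, edgeR). ACSL1 rose from 124.7 and 125.0 CPM to 143.2 and 153.9, by 0.25 on the log2 scale (adjusted p = 0.00058, edgeR). ACSL5 fell from 223.1 and 236.6 CPM to 164.0 and 165.3, a log2 change of -0.48 (adjusted p = 2.22e-07, edgeR), and ACSL4 had -0.22 (adjusted p = 0.00247, edgeR). ACSL4 did not pass with ERCC scaling (adjusted p = 0.31, edgeR) or with limma on TPM. ACSL6 (0.20, adjusted p = 0.0414, edgeR) and the transporter SLC27A2 (-0.18, adjusted p = 0.0441, edgeR) passed narrowly. ACSL6 no longer passed without 0 min replicate 1, 240 min replicate 1 or 240 min replicate 2 (adjusted p up to 0.244), nor SLC27A2 without 0 min replicate 1, 10 min replicate 1, 10 min replicate 2 or 240 min replicate 2 (adjusted p up to 0.269), and the count of 5 calls was 3 without 240 min replicate 2. CPT1B and CPT1C, forms of muscle and brain, had at most 11 and 2 reads in a library and were not tested. The low count of CPT1B is uncertain, since its mean at 0 min was 0.22 CPM but 4.78 TPM.

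Of the 15 genes of mitochondrial beta-oxidation 14 were tested, and 2 fell while 12 did not pass, with a median of -0.06. The 2 of 14 are a smaller share than the 41.0% of all genes called. The genes that fell were ACADVL and ETFA, which makes the alpha subunit of the flavoprotein that takes electrons from the acyl-CoA dehydrogenases. ETFA had 177.4 and 165.3 CPM at 0 min and 152.3 and 146.2 at 240 min (log2 change -0.20, SE 0.048, adjusted p = 0.00292, edgeR), and without 0 min replicate 1 it was -0.15 (adjusted p = 0.0519, edgeR). The count of 2 was 1 when either 0 min replicate was left out. The other dehydrogenases ACADS (-0.16, adjusted p = 0.227, edgeR) and ACAD9 (0.13, adjusted p = 0.179, edgeR) and the hydratase ECHS1 (0.08, adjusted p = 0.203, edgeR) did not pass. The thiolase ACAA2 had a value near 0 (-0.01, adjusted p = 0.947, edgeR). ACADL had at most 3 reads in a library.

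Of 15 peroxisomal genes 14 were tested, of which 1 rose, 3 fell and 10 did not pass (median -0.06, background 41.0% called). ACOX2, an oxidase of branched chains and bile acid intermediates, was between 34.8 and 37.04 CPM up to 30 min and was 30.1 and 28.87 CPM at 240 min. It fell by 0.30 on the log2 scale (SE 0.063, adjusted p = 0.000898, edgeR), and none of the fits without a single library lost the call. ACOX3, its relative, had 14.15 and 14.44 CPM at 0 min and 16.99 and 18.14 at 240 min (0.29, adjusted p = 0.0122, edgeR), and did not pass without 0 min replicate 1, 0 min replicate 2 or 240 min replicate 2 (adjusted p up to 0.0825). The racemase AMACR (-0.74, adjusted p = 0.00667, edgeR), which had at most 173 reads in a library and shares exons with a readthrough gene so that its count is uncertain, did not pass without 0 min replicate 2 or 240 min replicate 1 (adjusted p up to 0.15). The thioesterase ACOT8 (-0.36, adjusted p = 0.0321, edgeR) did not pass without 0 min replicate 1, 240 min replicate 1 or 240 min replicate 2 (adjusted p up to 0.157). When either 0 min replicate or 240 min replicate 2 was left out the count of 4 calls was 2.

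Of 7 genes of ketone body synthesis, use and export 6 were tested, and 3 fell while 3 did not pass (background 41.0% called). The median of -0.16, over these 6 genes, was the lowest of the 8 lists. Those that did not pass were ACAT1 (0.09, adjusted p = 0.178, edgeR), OXCT1 (0.06, adjusted p = 0.674, edgeR) and AACS (-0.12, adjusted p = 0.102, edgeR). BDH1, the dehydrogenase that interconverts acetoacetate and beta-hydroxybutyrate, fell from 46.4 and 50.1 CPM to 31.7 and 28.4 (-0.68, SE 0.068, adjusted p = 2.15e-07, edgeR). SLC16A1, the monocarboxylate transporter MCT1, went from 277.3 and 288.1 CPM to 252.6 and 241.5. It fell by 0.19 on the log2 scale (SE 0.049, adjusted p = 0.00359, edgeR) and did not pass without 0 min replicate 2 (adjusted p = 0.0512, edgeR). BDH2 (-0.32, adjusted p = 0.0116, edgeR) did not pass without 0 min replicate 2 or 240 min replicate 2 (adjusted p up to 0.0894). Leaving out 0 min replicate 2 lowered the count of falls from 3 to 1.

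Of 18 genes listed as PPARA targets, the 6 other members of the gene set among them, 15 were tested. Of these 2 rose (PLIN2 and ACSL1), 3 fell (ACADVL, VNN1 and CREB3L3) and 10 did not pass. The median was -0.05, and the background was 41.0% called. VNN1, a pantetheinase, went from 21.58 and 22.03 CPM to 14.3 and 15.3 (-0.57, SE 0.092, adjusted p = 6.78e-05, edgeR). CREB3L3, a hepatic factor that acts with PPARA in fasting, had 31.9 and 39.3 CPM at 0 min and 30.2 and 24.7 at 240 min (-0.38, adjusted p = 0.00753, edgeR), and did not pass without 0 min replicate 2 (-0.21, adjusted p = 0.231, edgeR) or 240 min replicate 2 (-0.26, adjusted p = 0.102, edgeR). FABP1, the liver fatty acid binding protein, had -0.17 (adjusted p = 0.264, edgeR) and EHHADH, the peroxisomal bifunctional enzyme, -0.02 (adjusted p = 0.831, edgeR). PDK4, FGF21 and CYP4A11, which PPARA induces in the liver, had at most 7, 1 and 1 reads in a library and did not pass the filter on low counts. The count of 5 calls in this list was 3 without 0 min replicate 2.

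Of 16 genes of the lipid droplet coat and of lipolysis 12 were tested. Of these 3 rose, 2 fell and 7 did not pass, with a median of 0.007 (background 41.0% called). Beside PLIN2, ABHD5, the coactivator of the lipase ATGL, rose from 9.70 and 9.18 CPM to 13.6 and 13.5 (0.53, SE 0.098, adjusted p = 0.000241, edgeR). PNPLA2, which encodes ATGL itself, fell from 66.1 and 70.7 CPM to 52.8 and 56.9 (-0.33, SE 0.058, adjusted p = 0.000165, edgeR), and PLIN3, another coat protein, fell from 106.4 and 99.6 CPM to 67.5 and 84.3 (-0.44, adjusted p = 0.000133, edgeR). Dropping replicate 1 at 240 min gave PLIN3 a log2 change of -0.29, and dropping replicate 2 gave -0.61, and both passed, but the call was lost with limma at pseudocounts of 1 and 0.1. PLIN1, with 17 to 69 reads in a library (0.92, adjusted p = 0.0178, edgeR), did not pass without 0 min replicate 1 (adjusted p = 0.0923, edgeR) or 240 min replicate 1, where it was 0.36 (adjusted p = 0.519, edgeR). CIDEA, G0S2, LIPE and MGLL had at most 2 reads in a library.

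Malonyl-CoA, made by ACACA and ACACB and removed by MLYCD, inhibits CPT1, and AMPK phosphorylates the carboxylases that make it. All 10 genes of this list were tested, of which 1 rose, 3 fell and 6 did not pass (median -0.02, background 41.0% called). ACACA (0.05, adjusted p = 0.478, edgeR), ACACB (-0.02, adjusted p = 0.876, edgeR) and MLYCD (0.12, adjusted p = 0.27, edgeR) did not pass at 240 min. PRKAA2, a catalytic subunit of AMPK, fell from 107.5 and 109.3 CPM to 77.1 and 82.0 (-0.45, SE 0.057, adjusted p = 3.81e-06, edgeR), and the beta subunit PRKAB2 fell from 199.7 and 214.2 CPM to 156.6 and 150.6 (-0.43, adjusted p = 9.95e-07, edgeR). STK11, the kinase LKB1 upstream of AMPK, had -0.27 (adjusted p = 0.0022, edgeR). The other catalytic subunit, PRKAA1, had -0.03 (adjusted p = 0.707, edgeR). The subunit PRKAG2 (0.45, adjusted p = 0.0440, edgeR) had 71 to 146 reads in a library and did not pass without 0 min replicate 2 (0.13, adjusted p = 0.669, edgeR), nor without either 10 min replicate, 30 min replicate 1 or either 240 min replicate.

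**Figure D5:**
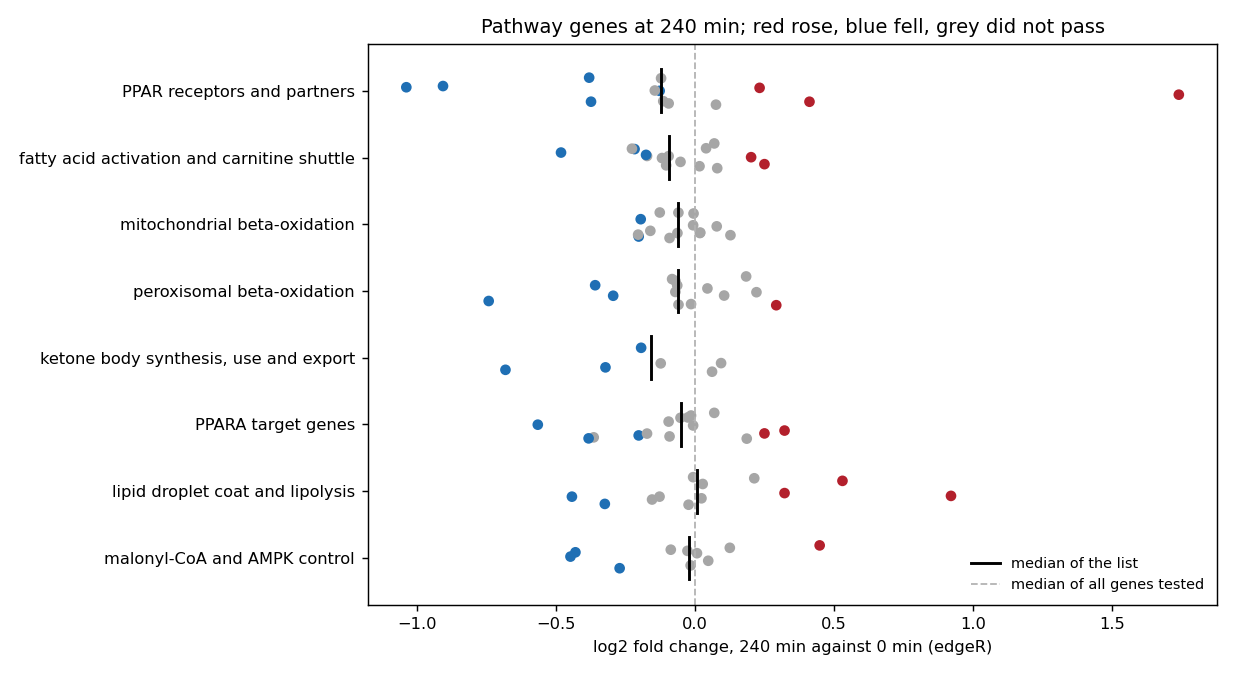
Log2 fold change at 240 min against 0 min of each tested gene of the 8 pathway lists, from edgeR, with genes that rose in red, genes that fell in blue and the others in grey, a black bar at each list's median and a dashed line at the median of all genes tested (-0.003). The points are spread by chance up and down within a list. PPARGC1B (1.74) and PPARGC1A (-1.04) lie farthest out.

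The 8 lists hold 102 different genes, the 7 genes included, of which 89 were tested, and 33 of these (37.1%) changed at 240 min, 10 rising and 23 falling, against 41.0% of all genes tested with rises and falls in nearly equal number. With ERCC scaling 10 of the 33 passed. Against 30 min, 36 of the 89 genes changed (40.4%, background 38.2%), 12 rising and 24 falling. The lists were not tested as sets. At the earlier times the lowest adjusted p among the 89 genes was 0.252 at 5 min (RXRB), 0.437 at 10 min (RXRB) and 0.167 at 30 min (LPIN1), all by edgeR.

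The IR peak table held 1971 peaks from 1 library, so the values have no replicate check. Within 5 kb of the gene body 3 of the 7 genes had a peak (ACADM, ACADVL and HADHA), as did 15.7% of all genes tested. Beside the peak at the start of the ACADM gene body, ACADVL had 2. A stronger one lay upstream at chr17:7118170-7118648 (score 526, rank 267), centered 2035 bases before the gene start in an intron of the neighboring gene. A weaker one lay inside the gene at chr17:7122858-7123255 (score 113, rank 769), with 8 annotated transcript starts of ACADVL in it. The peak at HADHA, chr2:26467494-26467938, was below the median score of 79 (score 75, rank 1021) and covered the start of HADHA, while HOMER assigned it to HADHB, the neighbor that starts head to head with HADHA. PPARA, CPT1A, CPT2 and PLIN2 had none, and the peak nearest to the start of PPARA was 227235 bases away. Genes with a peak were found both with a fall (ACADVL) and without a call (ACADM and HADHA), and the gene that rose had none.

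Of the tested genes of mitochondrial beta-oxidation 6 of 14 had a peak (ACADM, ACADVL, HADHA, HADHB, ETFB and ETFDH), ETFB and ETFDH also without a call at 240 min. The peak between HADHA and HADHB counts for both genes, so these are not separate peaks. For this list and the next ones the share over all genes tested is 15.7%. In the lipid droplet list 0 of 12 had one, in the PPAR list 2 of 13 (RXRB and NCOA2), and in the PPARA target list 3 of 15 (ACADM, ACADVL and HADHA). RefSeq promoter windows of 300 bases, 250 before to 50 after a start in GRCh38.p14, were found for all 7 genes, 9 windows in all, and each matched GRCh37 once. Of these 9 windows 3 touched an IR peak, at ACADM, HADHA and the inner start of ACADVL. AGGTCA or TGACCT was in none of the 9, against 13.8% of 35116 promoter windows, and the direct repeat AGGTCANAGGTCA in 0.0228% of them. A window without these letters says nothing of whether PPARA binds there or farther off. The windows held 6 (ACADVL, outer start) to 52 (PPARA) CG, against a median of 14 in all windows, and 96.0% of all windows held at least 1.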

How the data were processed

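RNA-seq of HepG2 cells at 5 times of insulin (2 replicates each) and 1 IR ChIP-seq library were analysed, from what the authors deposited. The authors trimmed single-end reads with Trim Galore 0.6.4, aligned them to hg19 with STAR 2.6.1d, counted them as reverse-stranded with featureCounts 1.6.4 and deposited raw counts per gene. The authors also deposited StringTie abundances as TPM, and a MACS2 2.2.7.1 peak table with a score per peak, annotated by HOMER, from reads aligned with BWA. Nothing was done here to the reads.

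Counts of 13852 genes kept by filterByExpr were fitted by edgeR 4.0.16 (R 4.3.3; TMM, quasi-likelihood, 1 model of the 10 libraries, no replicate block), without the 92 ERCC rows, and p-values were adjusted by Benjamini-Hochberg. Standard errors come from the fold change and its F statistic. The edgeR step was tested on simulated data. The 5 comparisons set 5, 10, 30 and 240 min against 0 min and 240 min against 30 min. Alternatives were DESeq2 1.42.0, limma 3.58.1 on TPM, other filters and scalings (RLE, upper quartile, ERCC), thinning, only the times compared, a replicate block and each library left out. The 7 genes, the lists and the tests were chosen with earlier results of these data known. Genes named are the 7, in each list up to 3 changed genes that rose most and 3 that fell most, the genes most like PPARA, CPT1A and PLIN2, and the markers. Some genes of these pathways are not reported here and are in no list count. The other list genes named (PPARD, MED1, RXRA, RXRG, SLC25A20, CRAT, CPT1B, CPT1C, HADHB, ETFB, ETFDH, ACADS, ACAD9, ACADL, ECHS1, ACAA2, ACAT1, OXCT1, AACS, FABP1, EHHADH, PDK4, FGF21, CYP4A11, CIDEA, G0S2, LIPE, MGLL, ACACA, ACACB, MLYCD, PRKAA1, NCOA2) were chosen after their values were seen. An IR peak was counted at a gene when it overlapped the gene body extended by 5 kb. Peaks and figures were handled with pandas 2.3.3 and matplotlib 3.10.9.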

Additional observations from a re-analysis of the deposited data

How the results depend on the processing

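The calls of PLIN2 and ACADVL at 240 min (2 genes) fell to 0 with ERCC scaling and to 1 (PLIN2) with limma on TPM in all 3 forms, and leaving out single libraries gave 1 to 3. Against 30 min the 2 calls became 0 with ERCC scaling and 1 with limma in all 3 forms. They became 3 with no filter on low counts, only the times compared, a replicate block or thinning. The gene added was CPT1A (adjusted p = 0.000165, 0.0131, 0.00538 and 0.0435 in that order, edgeR). With ERCC scaling at 240 min the log2 fold change was -0.32 for ACADVL (adjusted p = 0.324, edgeR), 0.21 for PLIN2 (adjusted p = 0.560) and -0.046 for CPT2, whose sign turned. The median log2 change of all genes was then -0.33 at 10 min and -0.13 at 30 min. With limma ACADVL had -0.16 (adjusted p = 0.130 at a pseudocount of 1, 0.172 at 0.1 and 0.109 at a mean TPM of at least 1). ACADM, near 0, turned to 0.020 (upper quartile), 0.0070 (thinned to the smallest total) and 0.034 (limma, all 3 forms), and to between -0.10 and 0.072 with single libraries left out, which gave -0.26 to -0.14 for ACADVL and -0.29 to 0.20 for CPT1A.

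Counts of called list genes moved as follows. The PPAR list (8) had 3 with ERCC scaling and 5 with limma at a mean TPM of at least 1. The activation list (5) had 3 with DESeq2 and with limma in all 3 forms, 1 with ERCC scaling and 3 to 5 with a library left out. The mitochondrial list (2) had 0 with ERCC scaling, 1, 0 and 1 with limma (pseudocount 1, 0.1, and mean TPM of at least 1) and 1 to 2 with a library left out. The peroxisomal list (4) had 2 with DESeq2 and with limma at 0.1, 1 with ERCC scaling and 2 to 4 with a library left out. The ketone list (3) had 1 with ERCC scaling, 1 with limma at 0.1 and 1 to 3 with a library left out. The target list (5) had 1 with ERCC scaling, 3 with limma in all 3 forms and 3 to 6 with a library left out. The droplet list (5) had 1 with ERCC scaling and 3 and 2 with limma at 1 and 0.1, and the malonyl-CoA list (4) had 2 with ERCC scaling and 2 with limma at 0.1. Of the 33 list genes called at 240 min 33 kept their direction under each alternative and 8 kept their call under all of them, namely PPARGC1A, PPARGC1B, RXRB, ACSL5, BDH1, VNN1, PRKAA2 and PRKAB2. The cause of these changes was not tested.

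Of all genes, 1059 were called at 240 min with ERCC scaling and 3493 with limma at 0.1, against 5676, and 917 and 3461 against 30 min, where the count was 5297. The share of higher genes among them at 240 min was 31.3% with ERCC scaling and 63.0% with limma at 1. At 5 min the count of 0 went up to 144 with no filter, at 10 min 19 ran from 0 to 74 and at 30 min 46 from 2 to 160. With the replicate number as a replicate block 5845 genes were called at 240 min, and CPT1A at 240 against 30 min passed (adjusted p = 0.00538, edgeR), but same-numbered libraries did not deviate together (correlations of -0.354 to 0.318 over 10 pairs of times, 5 of them over 0.1), so the numbers were not taken to pair the samples. The 3 genes with an IR peak were the same with 1 or 20 kb, and 2 with peaks above the median score or by HOMER's gene names, against 8.78% and 8.58% of all genes. PLIN1, PRKAG2 and ACOT8 lost their calls with libraries thinned to the smallest total.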
